A study of Homo sapiens with 4 samples.

Results

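The 10 genes described here are imprinted genes tied to growth, namely MEST, H19, IGF2, PEG3, PEG10, DLK1, MEG3, GRB10, PLAGL1 and NDN, out of 60617 gene rows in the deposited table. They were found by symbol, and all 10 matched an Ensembl ID. The set was chosen by the counts of MEST, which was among the genes with the largest falls after treatment, so the values of these genes between the 2 conditions are given as a description, with no test. RNA came from A673, a human Ewing sarcoma cell line carrying an EWSR1-FLI1 fusion, cultured in DMEM with serum. One group of 2 libraries came from cells exposed to CBL0137 at 1 µM for 24 h, and the other group of 2 libraries came from cells given DMSO, the vehicle, for the same time. CBL0137 is a curaxin, a compound that binds DNA and traps the histone chaperone FACT on chromatin. The study asked what inhibition of FACT does in this cancer, and A673 is a single line.

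An imprinted gene is read mainly from the copy inherited from a given parent, because the other copy carries silencing marks laid down in the germline. Many imprinted genes set fetal growth. Genes read from the paternal copy, such as IGF2 and MEST, tend to promote it, and several read from the maternal copy, such as H19, tend to restrain it. In mice, a group of these genes is co-expressed under the control of the zinc finger factor Plagl1 and falls in level after birth, and some are switched back on in embryonal tumours. RNA counts of whole genes, as used here, do not say which parental copy was read.

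Reads assigned to genes numbered 20483714 and 22817617 in CBL0137 replicates 1 and 2, and 23373554 and 23031963 in DMSO replicates 1 and 2. Counting error alone would give replicates a chi-square of about 1 per degree of freedom, and it was 2.57 between the CBL0137 libraries and 2.07 between the DMSO libraries. All 6 Ewing sarcoma markers looked at, among them CD99 and NKX2-2, were present, with mean levels of 56.0 to 1570 CPM (counts scaled to library size) in CBL0137 and 48.8 to 1590 CPM in DMSO. Of the markers of other cell types, CD3E and MYOD1 were at 0 in every library, and PTPRC had 0 reads in each CBL0137 library and 1 in each DMSO library. The labels do not say whether replicates were separate cultures, and the p-values given here then rest on a spread that may be technical only.

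The sequences below are the 250 bases before RefSeq transcript starts of MEST and MEG3 (GRCh38.p14, plus strand). They are shown because MEST fell the most of the members and MEG3 went opposite ways in the 2 deposited units. Capitals mark CG dinucleotides, the bases that carry the methylation of imprinted promoters, which was not measured here. MEST has separate starts, and its gene count adds the transcripts from all of them.
MEST window 1 (chr7:130485925-130486174): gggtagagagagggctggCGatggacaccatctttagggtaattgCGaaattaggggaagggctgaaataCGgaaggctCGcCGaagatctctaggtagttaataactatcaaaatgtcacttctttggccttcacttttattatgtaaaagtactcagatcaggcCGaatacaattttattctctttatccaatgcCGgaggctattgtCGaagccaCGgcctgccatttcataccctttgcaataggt
MEST window 2 (chr7:130491079-130491328): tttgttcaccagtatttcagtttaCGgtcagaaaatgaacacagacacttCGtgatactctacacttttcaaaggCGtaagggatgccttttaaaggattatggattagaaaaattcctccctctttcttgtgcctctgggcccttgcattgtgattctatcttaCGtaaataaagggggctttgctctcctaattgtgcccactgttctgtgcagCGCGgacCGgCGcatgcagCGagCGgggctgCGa
MEST window 3 (chr7:130491808-130492057): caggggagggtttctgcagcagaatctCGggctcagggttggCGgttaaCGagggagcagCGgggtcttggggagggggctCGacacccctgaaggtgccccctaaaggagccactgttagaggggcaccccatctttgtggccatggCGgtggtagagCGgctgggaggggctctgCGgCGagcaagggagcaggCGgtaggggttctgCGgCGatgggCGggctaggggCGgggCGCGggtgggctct
MEG3 window 1 (chr14:100825858-100826107): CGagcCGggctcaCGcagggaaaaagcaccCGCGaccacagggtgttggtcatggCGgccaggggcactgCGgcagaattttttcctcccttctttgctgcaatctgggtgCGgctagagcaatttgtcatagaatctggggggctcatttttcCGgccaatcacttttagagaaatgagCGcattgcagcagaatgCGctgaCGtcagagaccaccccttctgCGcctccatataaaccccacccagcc

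MEST windows 2 and 3 lay 5.15 and 5.88 kb after window 1. They held 9, 11 and 16 CG dinucleotides in windows 1, 2 and 3, and the MEG3 window held 13, against a median of 11 over 35116 windows of all RefSeq genes. The motif TGCCGC, which the imprint-keeping factor ZFP57 binds when methylated, was searched on both strands and occurred once in the MEG3 window and in 0 of the 3 MEST windows, while 12.7% of all windows held it. Windows were also at hand for H19, GRB10, PLAGL1 and NDN.

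The 10 genes split into 4 that were read at clear levels and 6 with few reads or 0 in every library. PEG3, PEG10, MEG3 and MEST had 117 reads or more in each library. Per length, in the FPKM that the authors deposited, PEG3 stood at 130 ± 2.19 in CBL0137 and 91.8 ± 0.331 in DMSO (mean ± SD, n = 2 here and below). PEG10 followed at 38.2 ± 0.0391 in CBL0137 and 45.2 ± 0.252 in DMSO. These levels put PEG3 above 97.9% of the 17309 genes with enough reads to fit, and PEG10 above 93.0%, while MEG3 stood above 47.0% and MEST above 45.5%. MEG3 had 3.87 ± 0.525 FPKM in CBL0137 and 3.32 ± 0.321 in DMSO, and MEST had 2.24 ± 0.257 FPKM in CBL0137 and 4.35 ± 0.402 in DMSO. Their order is not settled, because the FPKM and the counts of MEG3 went opposite ways.

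**Figure D1:**
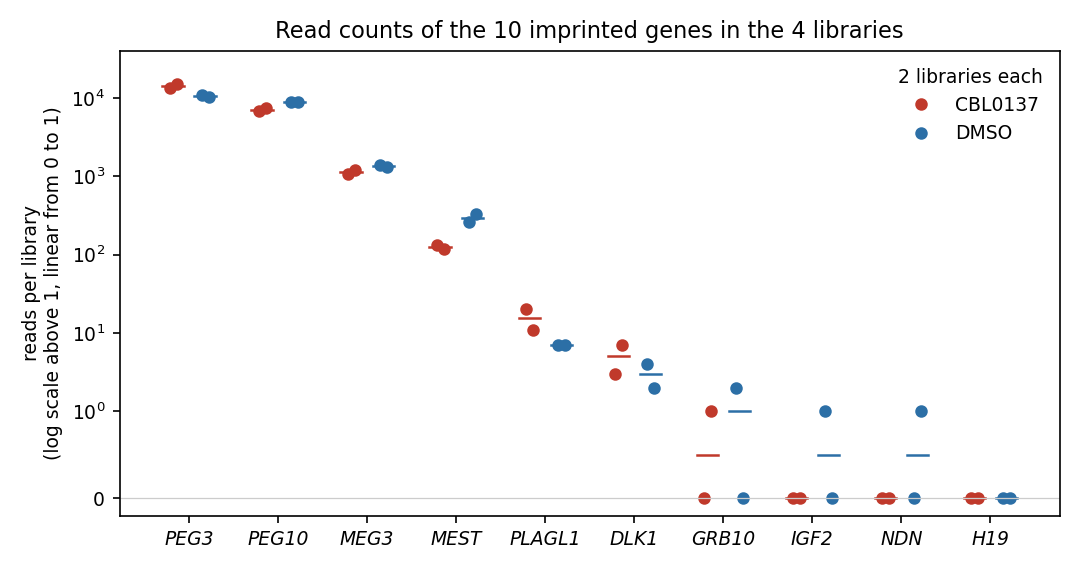
Reads per library (vertical axis, log scale above 1 and linear from 0 to 1) for each of the 10 genes, with CBL0137 in red left of DMSO in blue; points are libraries and short lines are means. PEG3, PEG10, MEG3 and MEST stand at 117 reads or more in every library, and PLAGL1, DLK1, GRB10, IGF2, NDN and H19 at 20 or fewer.

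MEST encodes a membrane protein of the alpha/beta hydrolase fold whose loss slows growth in mice (ENSG00000106484, chromosome 7, 130126012 to 130146306, plus strand, in GRCh37). It had 6.38 and 5.05 CPM in CBL0137 replicates 1 and 2, from 134 and 117 reads, and 11.3 and 14.5 CPM in DMSO replicates 1 and 2, from 259 and 326 reads. Both CBL0137 libraries were below both DMSO libraries. The means were 5.72 ± 0.940 CPM in CBL0137 and 12.9 ± 2.22 CPM in DMSO, a log2 fold change of -1.18 ± 0.15 (SE). This placed MEST seventh from the bottom, at rank 7 of 11339 genes averaging 5 CPM or more, and at rank 106 of all 17309. GCAT, next inside it in that order, had the same log2 fold change of -1.18, and SLC7A11, just beyond it, had -1.21. The deposited FPKM gave the same direction, with 2.42 and 2.06 in CBL0137 and 4.06 and 4.63 in DMSO, and a log2 ratio of the means of -0.96. In bulk RNA, fewer cells that make a transcript and less of it per cell cannot be told apart.

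The 5 genes nearest to MEST across the 4 libraries are not in the imprinted lists used here. Those lists hold few of the genes ranked, so nothing is read from their absence. Likeness was the Euclidean distance between log2 CPM values, each centred on the gene's own mean, over 4 libraries and 11302 genes. The nearest were METTL7A, a methyltransferase-like protein (distance 0.140), UBE2S, a ubiquitin-conjugating enzyme of the anaphase-promoting complex (0.210), and GCAT, a mitochondrial enzyme of glycine metabolism (0.255). SLC7A11, the cystine importer (0.272), and MGST1, a membrane glutathione transferase (0.281), came next. They lie on chromosomes 12, 19, 22, 4 and 12 in that order, and 4 libraries in 2 groups make such likeness mostly a matter of fold change.

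PEG3 encodes a large zinc finger protein that regulates growth and maternal behaviour in mice (ENSG00000198300, chromosome 19, 57321445 to 57352096, minus strand). It was higher after CBL0137, with 643 and 651 CPM in CBL0137 replicates 1 and 2 and 481 and 462 CPM in DMSO replicates 1 and 2. The groups did not overlap, and the log2 fold change of 0.46 ± 0.03, a ratio of 1.37, was below the 1.5-fold limit that the series' design text sets. Exons covering 50.9% of the PEG3 exon bases are shared with ZIM2 on the same strand or with an unnamed antisense gene. No source used here says how reads from such stretches were assigned.

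PEG10 is a gene domesticated from a retrotransposon, whose capsid-like protein is needed in the mouse placenta (ENSG00000242265, chromosome 7, 94285637 to 94299007, plus strand). It had 320 and 320 CPM in CBL0137 replicates 1 and 2 and 383 and 393 CPM in DMSO replicates 1 and 2. The groups did not overlap, and the log2 fold change was -0.28 ± 0.03, a ratio of 0.823. PEG10 and MEST thus lay on the same side of zero and PEG3 on the other. All 3 are known as paternally expressed genes, but which copy was read in these cells was not measured.

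MEG3 is a maternally expressed long noncoding RNA with growth-suppressing activity (ENSG00000214548, chromosome 14, 101245747 to 101327368, plus strand). It had 51.1 and 51.5 CPM in CBL0137 replicates 1 and 2 and 61.3 and 57.5 CPM in DMSO replicates 1 and 2. The groups did not overlap, with a log2 fold change of -0.21 ± 0.06. The deposited FPKM went the other way, at 4.24 and 3.50 in CBL0137 and 3.09 and 3.54 in DMSO, groups that overlap, with a log2 ratio of the means of 0.22. The number of reads behind 1 FPKM of MEG3 ran from 253 to 341 in CBL0137 and from 365 to 453 in DMSO, whereas for PEG10 it ran from 176 to 194 in CBL0137 and from 194 to 195 in DMSO. No direction can therefore be given for MEG3.

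**Figure D2:**
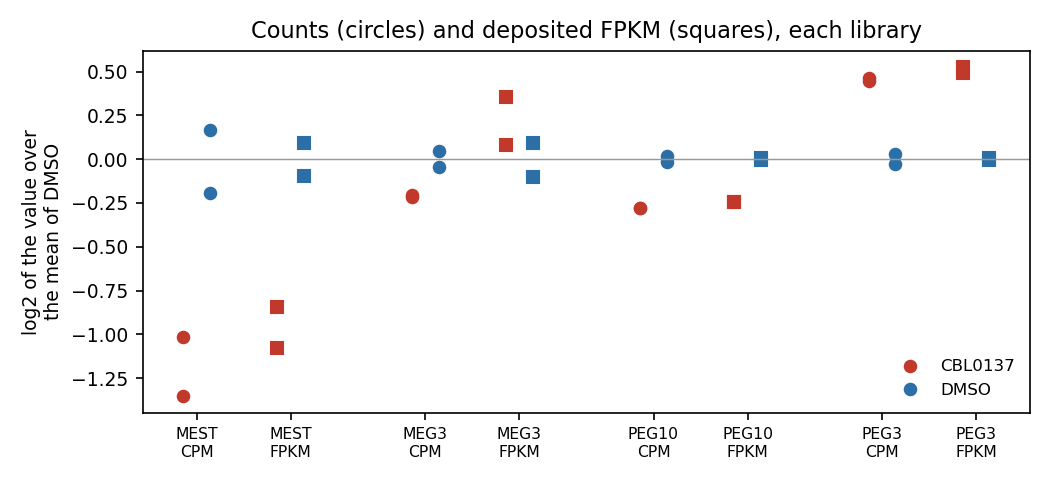
Each library's CPM (circles) and deposited FPKM (squares) as log2 of the value over the mean of the DMSO libraries, for MEST, MEG3, PEG10 and PEG3, with CBL0137 in red left of DMSO in blue. MEST lies low, PEG10 slightly low and PEG3 high in both units, while MEG3 is low in CPM and not in FPKM.

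PLAGL1, the zinc finger factor that heads the mouse network, was close to the limit of detection (ENSG00000118495, chromosome 6, 144261437 to 144385736, minus strand). It had 20 and 11 reads in CBL0137 replicates 1 and 2 and 7 and 7 reads in DMSO replicates 1 and 2. It passed the count filter only through the CBL0137 libraries, so it had to come out higher there, and its log2 fold change of 1.18 ± 0.55 moved to 0.61 without CBL0137 replicate 1 and to 1.61 without CBL0137 replicate 2. Its FPKM was at most 0.00870 in any library.

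The other 5 genes had too few reads for a fit. DLK1, a Notch-like ligand of immature cells, had 3 and 7 reads in CBL0137 replicates 1 and 2 and 4 and 2 in DMSO replicates 1 and 2. GRB10, an adaptor that damps insulin and IGF receptor signalling, had 0 and 1 reads in CBL0137 and 2 and 0 in DMSO. IGF2, the fetal growth factor, had 0 and 0 reads in CBL0137 and 1 and 0 in DMSO, and NDN, a growth-restraining protein of the MAGE family, had 0 and 0 in CBL0137 and 0 and 1 in DMSO. H19, the noncoding neighbour of IGF2, had 0 reads in all 4 libraries. A count of 0 allows up to 3 reads, or 0.128 to 0.146 CPM at these depths before TMM scaling. Differences below that were not detectable, and the count filter for the fit asked for more reads than that. Exon bases shared with other genes made up 44.4% of IGF2, but its deposited FPKM was low as well, at 0.0958 and 0.139 in CBL0137 and 0.127 and 0.0455 in DMSO. The FPKM of H19 was at most 0.0335 in CBL0137 and 0.0866 in DMSO, and that of DLK1 at most 0.234 in CBL0137 and 0.0983 in DMSO.

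Of the 5 fitted members, 1, MEST, lay past both limits of the whole-table fit, on the lower side, and 0 lay past them on the higher side. The limits were a fold above 1.5 and, from edgeR's quasi-likelihood test with Benjamini-Hochberg adjustment, an adjusted p under 0.05. Of all 17309 genes, 9.61% passed both in either direction, 2.73% on the lower and 6.88% on the higher side. With the limit on adjusted p alone, MEST, PEG10 and MEG3 on the lower side and PEG3 on the higher side passed in counts. Of all genes, 36.5% passed in either direction. These positions describe the members and do not test them, and no direction is given for MEG3. All 5 fitted members had groups that did not overlap in CPM, as did 66.9% of all genes. MEST was in the set because of this contrast, so nothing is read from these shares. The log2 fold changes of the 5 ran from -1.18 to 1.18 with a median of -0.21, against a median of 0.00 and a middle 95% of -0.76 to 1.28 over all genes. That median is the value of MEG3 in counts, which was 0.22 in FPKM, and the upper end is PLAGL1, whose sign the filter fixed.

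**Figure D3:**
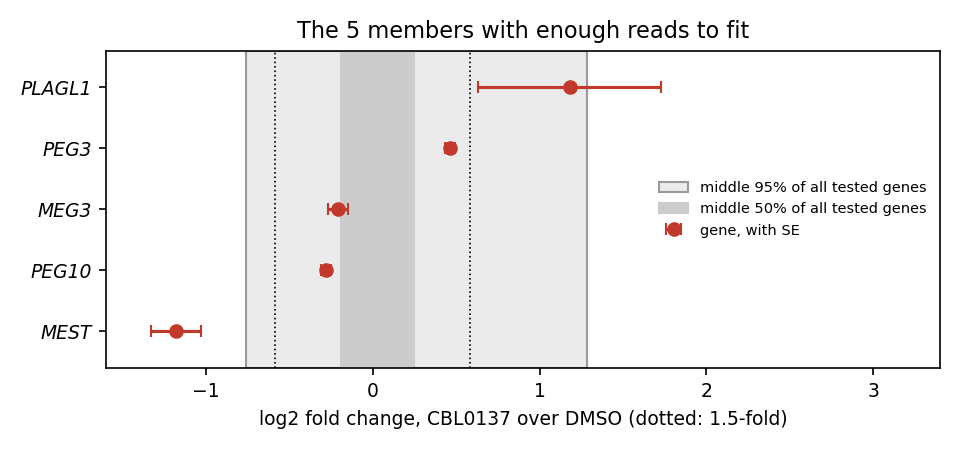
Log2 fold change of CBL0137 over DMSO (horizontal axis, bars are SE) for the 5 fitted genes, over bands that hold the middle 50% and 95% of all tested genes; dotted lines mark a 1.5-fold change. MEST at -1.18 lies outside the wider band, PLAGL1 has the widest error, PEG3 and PEG10 lie on opposite sides of 0, and MEG3 is drawn at its value in counts, which FPKM reverses.

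Other imprinted genes, listed from textbook knowledge and not for how they moved, were tested in the same fit. Of 50 listed genes 46 matched an ID, 7 of these were at 0 in every library, and 29 were tested. Among the 29, 3 rose, 0 fell and 26 were not called, so 10.3% were called against 9.61% of all genes. Their median log2 fold change was 0.15, against 0.00 over all genes. At an unadjusted p under 0.05, edgeR had 6 of the 29 lower and 10 higher, where 22.8% of all genes were lower and 22.0% higher. DESeq2 called 2 and limma-voom 3, none of them lower.

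PHLDA2, a maternally expressed gene that restrains growth of the placenta, rose. It measured 24.5 and 26.2 CPM in CBL0137 replicates 1 and 2 and 14.7 and 11.3 CPM in DMSO replicates 1 and 2, with a log2 ratio of 0.96 ± 0.11 (edgeR adjusted p = 6.35e-08). Both CBL0137 libraries stood above both DMSO libraries, the FPKM gave the same order (18.9 ± 1.18 in CBL0137, 9.17 ± 1.89 in DMSO), and the call held under every alternative apart from a 2-fold limit.

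SNRPN, a paternally expressed splicing protein gene, and WT1-AS, a noncoding RNA that starts beside WT1, also rose in counts, with weaker support. SNRPN had 1.62 and 1.68 CPM in CBL0137 replicates 1 and 2 and 0.656 and 0.977 CPM in DMSO replicates 1 and 2 (log2 fold change 1.01 ± 0.36, edgeR adjusted p = 0.029). Its deposited FPKM was 38.9 and 39.6 in CBL0137 and 37.7 and 35.0 in DMSO, while its counts were 39 reads or fewer per library, and SNURF shares its locus. WT1-AS had 11.0 and 10.3 CPM in CBL0137 and 6.17 and 7.86 CPM in DMSO (0.60 ± 0.14, edgeR adjusted p = 0.00125). The overlapping gene WT1, on the other strand, had a log2 fold change of 0.52 ± 0.06, and without strand their reads cannot be told apart where they overlap. Both calls were lost without CBL0137 replicate 1 (SNRPN 1.04, WT1-AS 0.55) and without DMSO replicate 1 (SNRPN 0.75, WT1-AS 0.43), and that of SNRPN also without CBL0137 replicate 2 (0.98) and under DESeq2 (1.02). On log2(FPKM + 1) neither was called, at 0.11 for SNRPN and 0.18 for WT1-AS.

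By expressed allele, 2 of 11 tested paternally expressed genes rose and 9 were not called, with a median log2 fold change of 0.30. That median is the value of GNAS-AS1 (0.30 ± 0.54), which had 17 reads or fewer per library. The list leaves out the members, of which MEST and PEG10 were lower and PEG3 higher. Of 12 genes listed as maternally expressed 1 rose and 11 were not called, with a median of -0.04. Of 6 genes listed as imprinted by isoform or tissue, 6 were not called, with a median of 0.01. The lists are not clean classes, as UBE3A in the maternal list is read that way in neurons. Of all genes, 6.88% rose and 2.73% fell. Among genes not called, ZNF331 (0.31 ± 0.06, edgeR adjusted p = 3.74e-04) and SNHG14 (0.29 ± 0.06, 7.03e-04) had the smallest adjusted p of the paternal list. The mean FPKM of SNHG14 went the other way, at 1.53 in CBL0137 and 1.96 in DMSO. In the maternal list the genes not called with the smallest adjusted p were OSBPL5, a lipid transfer protein (0.42 ± 0.06, 8.99e-06), and NLRP2 (-0.22 ± 0.07, 0.0165). In the third list they were IGF2R, the receptor that clears IGF2 (0.22 ± 0.04, 2.49e-05), and COPG2 (-0.45 ± 0.08, 4.76e-05).

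**Figure D4:**
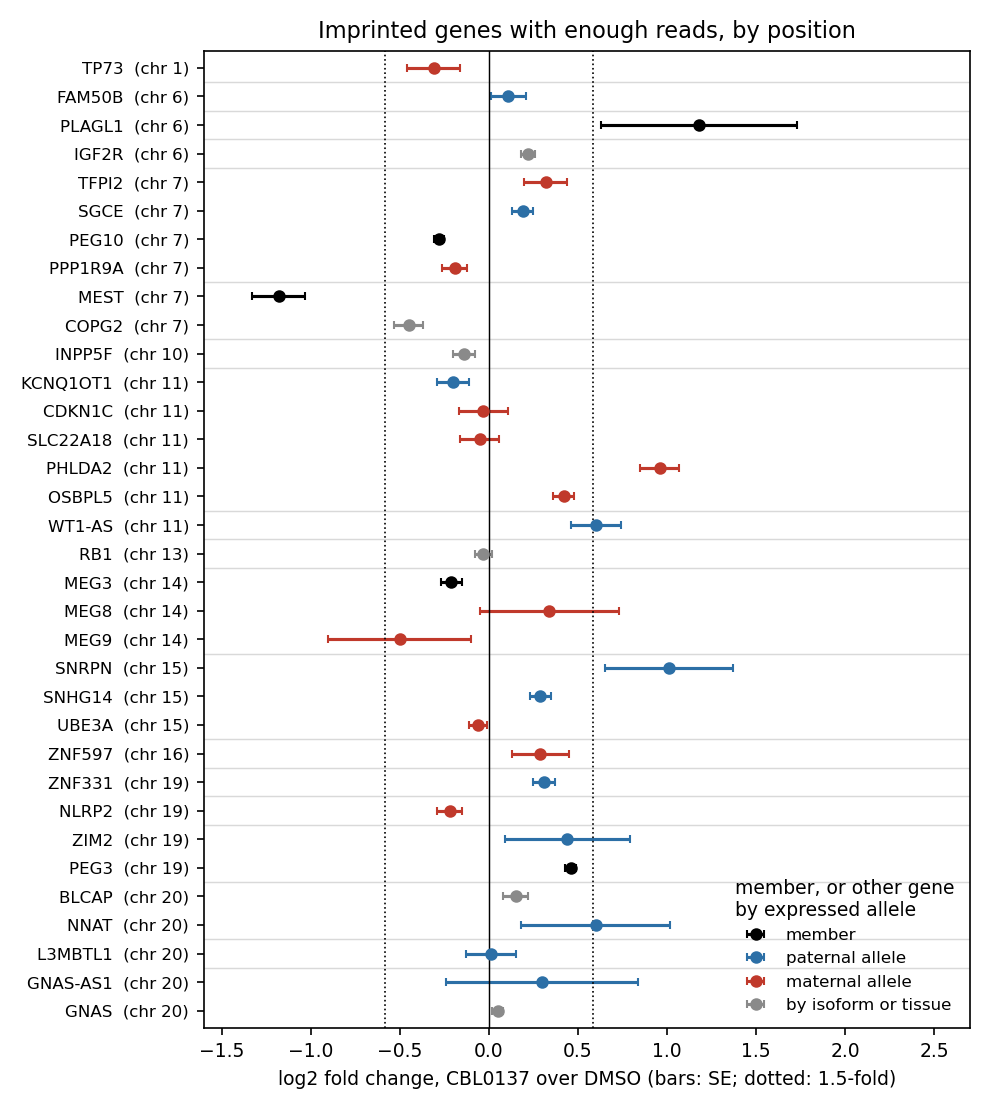
Log2 fold change of CBL0137 over DMSO (horizontal axis, bars are SE) for every fitted imprinted gene in order of chromosome and position (members black, others blue for paternal, red for maternal and grey for isoform- or tissue-dependent expression); grey lines separate genes over 1 Mb apart and dotted lines mark 1.5-fold. Genes of the same region differ in sign in some regions, as PEG10 at -0.28 and SGCE at 0.19 do. They share it in others, as MEST at -1.18 and COPG2 at -0.45 or PEG3 at 0.46 and ZIM2 at 0.44 do. ZIM2 had 35 reads or fewer per library and an SE of 0.35, so its sign is not settled. The genes of each pair named here also share exon bases.

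Imprinted genes sit in clusters that share a control region, so the members were set beside the imprinted genes linked to them by gaps under 1 Mb, genes singled out by position after the values were seen. At the PEG10 locus, SGCE encodes a membrane protein of the sarcoglycan family. It starts on the opposite strand so that the 2 genes overlap by 247 bases at their starts. Both are known as paternally expressed genes, which was not measured here. SGCE had 67.0 and 68.1 CPM in CBL0137 replicates 1 and 2 and 57.2 and 61.6 CPM in DMSO replicates 1 and 2 (0.19 ± 0.06, edgeR adjusted p = 0.0104), above DMSO where PEG10 was below it. The difference between the 2 genes was not tested. TFPI2 (0.32 ± 0.12) and PPP1R9A (-0.19 ± 0.07), further out in this cluster, were not called.

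In the H19 and IGF2 region of chromosome 11, 10 imprinted genes were listed and 5 had enough reads. Beside PHLDA2 and OSBPL5, the cell cycle inhibitor CDKN1C measured -0.03 ± 0.14, SLC22A18 -0.05 ± 0.11 and the noncoding RNA KCNQ1OT1 -0.20 ± 0.09. INS and IGF2-AS were at 0. In the DLK1 and MEG3 region of chromosome 14, the maternally expressed noncoding RNAs MEG8 and MEG9 had 47 and 33 reads over both CBL0137 libraries and 38 and 48 over both DMSO libraries, while RTL1, read from the paternal copy like DLK1, had 3 and 3. In the NDN region of chromosome 15, MAGEL2, MKRN3 and PWRN1 were at 0 and NPAP1 had 1 read in all, whereas SNHG14 had 54.4 ± 3.51 CPM in CBL0137 and 44.5 ± 0.0999 CPM in DMSO. The deposited FPKM of SNHG14 was 1.77 and 1.28 in CBL0137 replicates 1 and 2 and 2.92 and 1.00 in DMSO replicates 1 and 2. Those groups overlap and their means go the other way, so no direction can be given for SNHG14. UBE3A, read from the maternal copy of this region in neurons, measured -0.06 ± 0.05.

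At the MEST locus, 20 annotated genes lay within 300 kb and 3 had enough reads. COPG2, a subunit of the coat of transport vesicles on the opposite strand, had 23.4 and 25.9 CPM in CBL0137 replicates 1 and 2 and 34.0 and 33.4 CPM in DMSO replicates 1 and 2, and was not called. CEP41, a protein of centrosomes and cilia, measured 0.30 ± 0.08 (edgeR adjusted p = 0.00412; 0.67 on log2(FPKM + 0.1), where it was called) and TMEM209 -0.18 ± 0.08 (0.109). At an unadjusted p under 0.05 there were 2 lower and 1 higher among the 3, against 22.8% and 22.0% of all genes. COPG2, MESTIT1 and another antisense gene share 27.6% of the exon bases of MEST, and no source used here says whether reads were assigned by strand. MESTIT1, the antisense RNA inside MEST, and MIR335, the microRNA gene in a MEST intron, had 0 reads in every library. No source used here says that the libraries captured short RNAs, so the 0 of MIR335 does not show that it is silent.

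**Figure D5:**
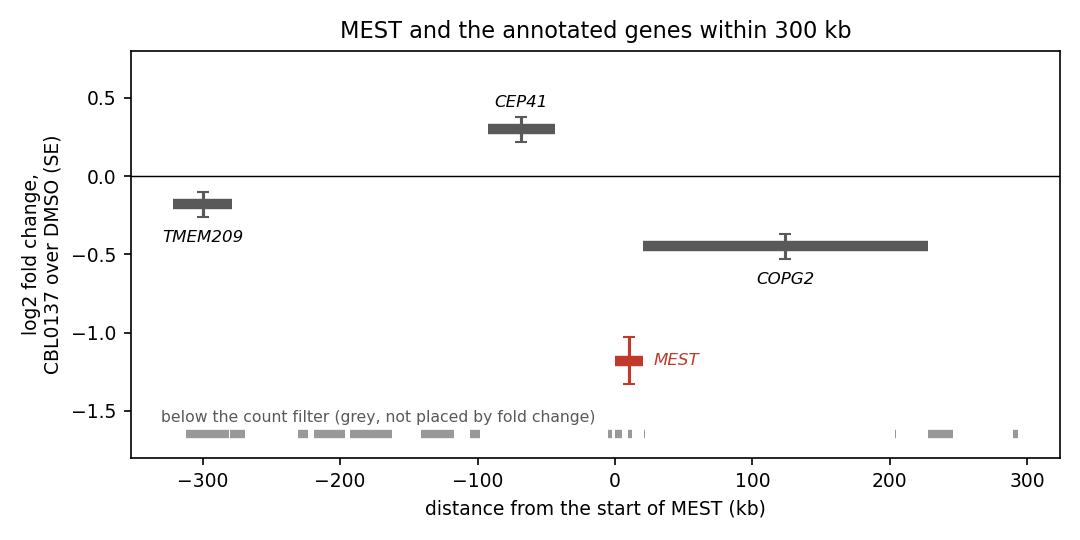
Log2 fold change of CBL0137 over DMSO (vertical axis, bars are SE) of MEST (red) and of the 3 genes within 300 kb with enough reads, drawn as bars over their extent in kb from the start of MEST; genes below the count filter are grey marks at the bottom. MEST at -1.18 lies below COPG2 at -0.45, TMEM209 at -0.18 and CEP41 at 0.30.

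Over all members, 238 annotated genes lay within 300 kb, 156 of them at 0 in every library, and 36 were tested. Many of those at 0 near DLK1 and MEG3 are microRNA or small nucleolar RNA genes, which these libraries may not capture. Of the 36 tested, 1 rose, 0 fell and 35 were not called, or 2.78% against 9.61% of all genes. SGCE, PPP1R9A, COPG2, ZIM2, MEG8 and MEG9 are in the imprinted lists too. The gene that rose was ZNF470, a zinc finger gene near PEG3, with 15.7 and 16.7 CPM in CBL0137 replicates 1 and 2 and 11.5 and 9.59 CPM in DMSO replicates 1 and 2 (0.62 ± 0.11, edgeR adjusted p = 9.21e-05), and its call was lost without CBL0137 replicate 2 (0.57) and without DMSO replicate 2 (0.49). The 10 tested neighbours of PEG3 had a median log2 fold change of 0.41. Among them ZIM2 and an unnamed antisense gene share exon bases with PEG3, and these and SMIM17 had 43 reads or fewer per library. At an unadjusted p under 0.05, edgeR had 3 of the 10 higher and 0 lower, against 22.0% and 22.8% of all genes. Other neighbours gave medians from -0.34 near GRB10, over 2 tested genes, to 0.19 near IGF2, over 6. Near NDN 0 of 10 genes had a read.

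Of the listed genes that act on imprints or on DNA methylation (the imprint maintenance list), ZFP57 and DPPA3 were at 0 in every library. Of 23 such genes 19 were tested, and edgeR called 0 at both limits, as did DESeq2 and limma-voom, against 9.61% of all genes. At an unadjusted p under 0.05, 8 were lower and 2 higher, against 22.8% and 22.0% of all genes. Among the 8 are TET1 (-0.45 ± 0.07) and TET3 (-0.19 ± 0.05), which act to remove DNA methylation and not to keep it. TRIM28, the co-repressor that ZFP57-type factors recruit, had 472 and 483 CPM in CBL0137 replicates 1 and 2 and 604 and 575 CPM in DMSO replicates 1 and 2 (-0.30 ± 0.03, edgeR adjusted p = 9.09e-08). DNMT1, the maintenance DNA methyltransferase, had 391 and 398 CPM in CBL0137 and 485 and 475 CPM in DMSO (-0.28 ± 0.03, edgeR adjusted p = 2.51e-07). Both were below the fold limit, and ZNF445, a further imprint-keeping zinc finger, measured -0.04 ± 0.06.

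With IGF2 itself near 0, genes that receive or handle the ligand were nonetheless present. Of 13 tested, 1 rose, 0 fell and 12 were not called, or 7.69% against 9.61% of all genes. IGFBP4, a binding protein that holds IGFs away from their receptor, rose, with 21.7 and 23.8 CPM in CBL0137 replicates 1 and 2 and 14.3 and 14.4 CPM in DMSO replicates 1 and 2 (0.67 ± 0.09, edgeR adjusted p = 3.57e-06). PAPPA, the protease that cleaves IGFBP4, measured -0.34 ± 0.05 (edgeR adjusted p = 1.08e-06) and IGFBP2 0.28 ± 0.03 (2.59e-07), both below the fold limit. At an unadjusted p under 0.05, 4 of the 13 were lower and 4 higher, against 22.8% and 22.0% of all genes.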

How the data were processed

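Gene expression was measured by RNA-seq in 2 CBL0137 and 2 DMSO libraries, grouped by sample title. Per the submitters' processing notes and the series' design text, adapters were trimmed with Trim Galore, reads mapped to hg19 with HISAT2, and the deposited counts made with HTSeq 0.11.1. The deposited FPKM was computed by the authors from mapped reads, gene length and depth, but the tool, the strand setting and the annotation release are not stated. The notes also name a mouse build, whose role is unknown.

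Of 60623 rows, 60617 name a gene, and 58524 of these IDs got a symbol from GENCODE release 44 on GRCh37. The summary rows held 23.7% to 24.8% of reads and were left out. Counts were fitted with edgeR 4.0.16 in R 4.3.3 (TMM, filterByExpr with a minimum count of 10, quasi-likelihood test, no covariate) over 17309 genes. Calls needed a fold above 1.5 and an adjusted p (Benjamini-Hochberg) under 0.05. CPM is after TMM scaling, and the SE is the log2 fold change over the root of the F statistic. On simulated counts with 16868 genes fitted, calls were made for 74 of 98 genes with a 2-fold change, for 59 of 97 with a 1.6-fold change, and for 2 of 16673 left unchanged. Promoter sequences are from RefSeq (GRCh38.p14). Intervals and limits for 0 cover counting error only.

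Members and lists were chosen with earlier results of these data known. Named genes are all members, every called gene of a list or neighbourhood, the 2 genes per list not called with the smallest adjusted p, and the 5 most like MEST; others were chosen after their values were seen. PWAR6, IPW, COPG2IT1 and H13 had no matching ID, nor did the marker PECAM1, and 1 other marker is not reported here. Alternatives were other scalings, filters and fold limits, DESeq2 1.42.0, limma-voom and limma-trend on FPKM (limma 3.58.1), each library left out, and the replicate number as a block. Tables were made with Python 3.11.15 and pandas 2.3.3.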

Additional observations from a re-analysis of the deposited data

How the results depend on the processing

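MEST, PEG3 and PEG10 kept the sign of their log2 fold change under every alternative run (the count filter fixed that of PLAGL1); MEST ran from -1.35 to -0.72, the last on log2(FPKM + 1). MEG3 reversed on FPKM, to 0.17 with a pseudocount of 1 and 0.21 with 0.1, and the cause was not tested. Genes called higher numbered 1191 and lower 472; DESeq2 gave 721 higher, FPKM with a pseudocount of 1 gave 388 higher and 189 lower, FPKM with 0.1 gave 489 and 237, a 2-fold limit 605 and 131, and no fold limit 3022 and 3292. Library size alone gave 1443 and 365, and upper-quartile factors 1389 and 388. Of the other imprinted genes 3 were called; FPKM with a pseudocount of 1 and a 2-fold limit each gave 1, no fold limit 12, and leaving out a library 1 to 3. Genes of the imprint maintenance list stayed at 0 called except with no fold limit, where 9 were. Of the IGF2 signalling and handling genes 1 was called, against 0 at a 2-fold limit, 7 with no fold limit and 1 to 2 with a library left out (IGFBP6 was added without CBL0137 replicate 2). Of the neighbours 1 was called, against 3 on FPKM with a pseudocount of 0.1 (CEP41 and UTRN added), 3 each with library size alone and upper-quartile factors (SMIM17 and ZNF471 added), 2 on FPKM with a pseudocount of 1, with a 1 CPM filter and with no count filter, 0 at a 2-fold limit, 10 with no fold limit and 0 to 2 with a library left out. With the replicate number as a block, 1128 genes were higher and 448 lower, and the calls in each list and the neighbours stayed at 3, 0, 1 and 1. Deviations of same-numbered libraries correlated at -0.000133, so no shared effect of the number was seen. Whether same-numbered libraries were paired is not stated in the labels. Fits without a library take the spread of the single library left in that group from the other group. Depth limits what can be said of the members with under 25 reads.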

Other observations

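Upstream windows of 250 bases from RefSeq were at hand for both read and silent members. GRB10, with 0 to 2 reads per library, has 5 separate windows with 2 to 40 CG dinucleotides, and its window with 40 exceeds 97.8% of all windows. NDN, with 0 to 1 reads, has 30, above 87.6%. H19, with 0 reads, has 4, above 29.3%. The 3 windows of MEST stood above 45.9%, 49.7% and 59.0% of all windows. The motif GCCATNTT, a core of YY1 sites, was searched on both strands and found in 1 of 5 PLAGL1 windows and in 0 windows of the other members at hand, while 3.86% of all windows hold it.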
